A study of Mus musculus with 50 samples.

Results

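The expression of 46 genes of mitosis and of the G2/M phase that precedes it was examined in single blood-forming cells from mice that had received a single transplanted stem cell. The genes were taken by name and not by their measured values, though earlier results of these data were known. All 46 are among the 19224 genes of the count matrix. They were described in 3 classes of cells, set by transcripts. These were cells with the stem cell surface gene Procr, cells without it that had Kit (called progenitors), and cells with markers of a lineage. Single haematopoietic stem cells from β-actin-GFP transgenic donors on the B6-Ly5.2 background had been given, with unlabelled whole marrow cells of B6-Ly5.2 mice, to lethally irradiated B6-Ly5.2 recipients. All samples shared this treatment, and host cells and competitor cells were present beside the progeny of the single cell. The labels list 50 samples, 10 taken at 1 month, 26 at 4 months and 14 at 12 months, of which 5, 4 and 6 were marrow with spleen. Sorted cells had been enriched for c-Kit and gated by surface markers or GFP, and the lineage cocktail held B220, Gr-1 and TER-119. Cells were not assigned here to samples, months, tissues or sort gates, so all of them formed 1 pooled sample without replicates, and no statistical test was made between classes.

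A cell that has copied its DNA passes through G2 and then divides its chromosomes in mitosis. Condensin packs the chromosomes, kinetochores attach them to the spindle, the spindle checkpoint delays separation until all are attached, and the anaphase promoting complex then releases it, after which cytokinesis parts the daughter cells. The genes for these steps are transcribed late in the cell cycle, and many of their promoters carry a cell cycle homology region, with the sequence TTTGAA, near CCAAT boxes bound by NF-Y. Most long-term stem cells of adult marrow are known to be out of cycle, whereas progenitors divide often.

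Promoters were matched for 40 of the 46 genes (RefSeq, GRCm38.p6, 250 bases before to 50 after the start, either strand of each motif counted). TTTGAA lay between -100 and 50 of the start in 29 of the 40, or 72.5%, against 6.83% of 14634 genes of the matrix with a promoter. A gene was counted where any of its promoters held the motif. CCAAT lay anywhere in the window in 77.5% against 42.1%, and the pair in 65.0% against 2.97%. The related sequence TTTAAA was in 12.5% against 5.29%. A match describes the letters and does not show a bound site. The promoters of 4 genes with TTTGAA, those of the 40 with the highest ratio of progenitors to Procr+ cells whose motif falls in the stretch shown, are printed from 120 bases before to 30 after the start. That of Nusap1, the highest without it, follows. Capitals mark TTTGAA and CCAAT, which read TTCAAA and ATTGG where they lie on the other strand. In Cdca8 the TTTGAA overlaps an ATTGG.
Ube2c: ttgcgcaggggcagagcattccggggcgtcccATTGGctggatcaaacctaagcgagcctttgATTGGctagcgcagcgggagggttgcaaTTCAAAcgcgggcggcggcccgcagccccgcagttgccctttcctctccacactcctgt
Spc25: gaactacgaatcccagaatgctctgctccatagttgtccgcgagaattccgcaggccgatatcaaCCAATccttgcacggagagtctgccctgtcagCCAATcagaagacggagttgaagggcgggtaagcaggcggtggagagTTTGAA
Top2a: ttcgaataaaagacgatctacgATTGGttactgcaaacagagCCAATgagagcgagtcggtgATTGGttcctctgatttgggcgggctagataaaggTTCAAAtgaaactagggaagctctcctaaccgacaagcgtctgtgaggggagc
Cdca8: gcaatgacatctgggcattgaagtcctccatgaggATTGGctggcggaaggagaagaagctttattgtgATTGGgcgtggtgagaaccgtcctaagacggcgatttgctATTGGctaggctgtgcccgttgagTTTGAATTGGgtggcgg
Nusap1: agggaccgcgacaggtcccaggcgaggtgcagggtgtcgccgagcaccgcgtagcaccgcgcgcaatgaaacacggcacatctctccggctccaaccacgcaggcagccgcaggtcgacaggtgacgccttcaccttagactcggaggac

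On GRCm38 these stretches are chr2:164769809-164769958 on the plus strand for Ube2c, chr2:69206184-69206333 on the minus strand for Spc25 and chr11:99024160-99024309 on the minus strand for Top2a. Those of Cdca8 and Nusap1 are chr4:124936888-124937037 on the minus strand and chr2:119618178-119618327 on the plus strand. TTTGAA sits at -29 in Ube2c, at 24 in Spc25, at -23 in Top2a and at 13 in Cdca8, counted from the start base at 0. The Nusap1 stretch holds neither motif, and its gene was nevertheless among those with the highest ratios below.

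The 67 libraries held 4271 cells and 624386060 counts, between 1665151 and 26184494 per library. After cells under 1000 detected genes or over 10% mitochondrial counts were left out, 4185 cells remained, with a median of 122013 counts and 4186 genes. Of 95 cell numbers used within libraries, 93 recurred in more than 1 library. A Procr+ cell had at least 50 CPM (counts scaled to a common total per cell) and 2 counts of Procr, which encodes the receptor EPCR (CD201). A lineage-marker cell had no Procr by that rule and at least 3 markers of 1 lineage at 100 CPM. A progenitor had neither and at least 20 CPM of Kit, the receptor for stem cell factor. That name stands for this rule only, and such cells may include stem cells with Procr under the limit. These gates gave 2598 Procr+ cells (62.1% of those kept), 631 progenitors (15.1%), 756 lineage-marker cells (18.1%) and 200 ungrouped cells (4.78%). Median counts were 128430, 139839 and 78079 in the first 3 classes. Some lineage markers were also held by most Procr+ cells, so the lineage-marker class is not one of mature cells alone. With stricter lists, described below, it held 534 cells, and 34.7% of those thinned were mitosis-high as defined below. The libraries Lib17, Lib18 and Lib23 stood apart in the number of mitosis genes per cell. The mitosis-high shares of the 3 classes are given with and without them. Shares of single lineages and of the Procr+ splits include them.

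Most cells held counts of only a few mitosis genes, and a minority held many at once. So that depth did not set the number, each cell with at least 20000 counts was thinned to 20000, which left 3826 cells and dropped 359. The median was 5 of the 46 genes in Procr+ cells, 5 in progenitors and 6 in lineage-marker cells, while single cells reached 45, 45 and 42. Cells with at least 10 of the genes are called mitosis-high here, which is a range of a count and not a cell type. By that limit 281 of 2477 Procr+ cells, or 11.3%, were mitosis-high (exact 95% binomial interval 10.1 to 12.7, for counting error only). Of progenitors 136 of 596, or 22.8% (19.5 to 26.4), and of lineage-marker cells 193 of 583, or 33.1% (29.3 to 37.1), were mitosis-high. The intervals of the 3 classes did not overlap.

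**Figure D1:**
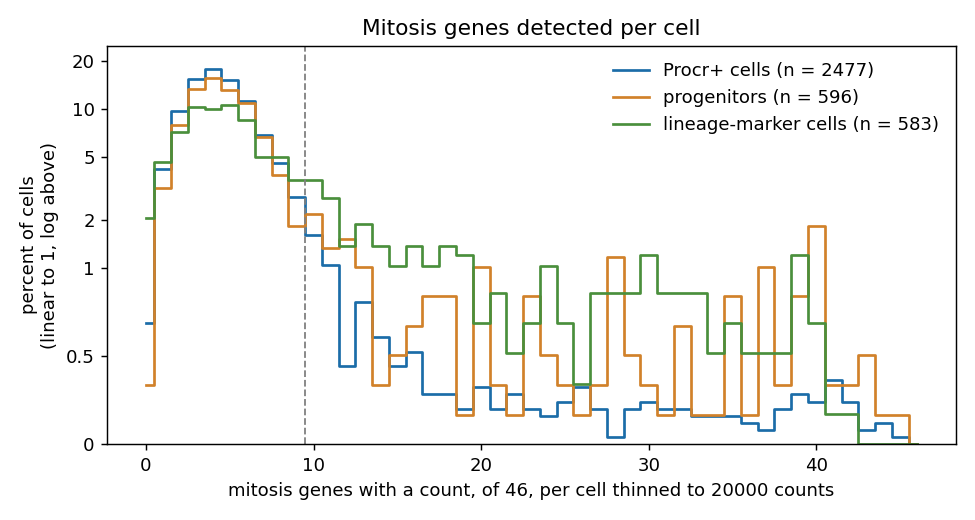
Percent of cells (linear up to 1, logarithmic above) by the number of the 46 mitosis genes with a count after thinning, for each class; the dashed line marks the limit of 10. The bulk of each class lies below the limit, with a median of 5 or 6 genes, and 11.3% of Procr+ cells, 22.8% of progenitors and 33.1% of lineage-marker cells lie in the tail beyond it.

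The border is gradual on its lower side. Among Procr+ cells 182 held 8 or 9 of the genes and 66 held 10 or 11. Cells with at least 30 of the genes, far from the limit, made up 2.91% of Procr+ cells, 8.05% of progenitors and 8.75% of lineage-marker cells. Without thinning, with a gene counted at 50 CPM, the shares were 8.28%, 20.3% and 25.0%, in the same order.

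Libraries differed widely in these shares. Over the 59 libraries with at least 10 thinned Procr+ cells, the mitosis-high share of Procr+ cells had a minimum of 0, a median of 10.5% and a maximum of 61.7%. It was 0 in 4 libraries and over 30% in 4. Progenitors ranged from 0 over a median of 16.0% to 69.0% in 24 libraries, and lineage-marker cells from 6.78% over 33.3% to 62.5% in 17. The ranges overlapped. Within libraries that held at least 5 cells of both classes, the progenitor share was above the Procr+ share in 37 of 50, and the lineage-marker share was above it in 23 of 28 and equal in 1.

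**Figure D2:**
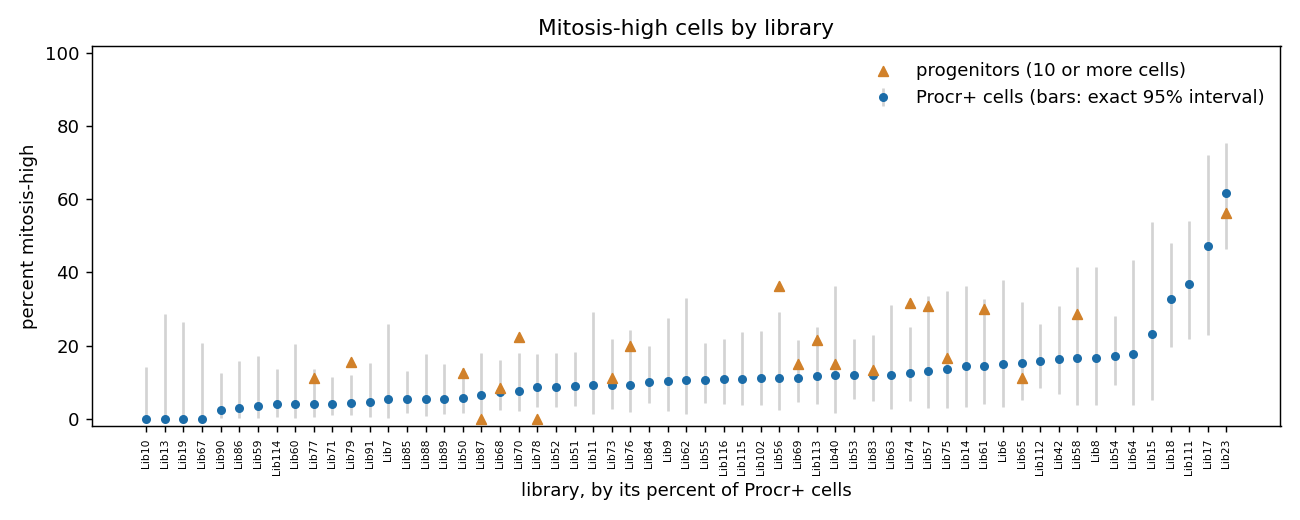
Percent of mitosis-high cells in each of the 59 libraries with at least 10 thinned Procr+ cells, ordered by that percent; circles are Procr+ cells with exact 95% binomial intervals and triangles are progenitors where a library had 10 or more. Most circles lie below 20%, and Lib23 reaches 61.7%.

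The libraries over 30% were Lib23 with 29 of 47 Procr+ cells (61.7%, 46.4 to 75.5), Lib17 with 8 of 17 (47.1%, 23.0 to 72.2), Lib111 with 14 of 38 (36.8%, 21.8 to 54.0) and Lib18 with 15 of 46 (32.6%, 19.5 to 48.0). Lib17, Lib18 and Lib23 were also shallow. Their Procr+ cells had a median of 49513 counts against 140967 in the other libraries. In these 3 libraries 26.4% of the 110 Procr+ cells held 10 to 14 of the genes and 14.5% held 20 or more, against 3.51% and 4.65% of 2367 cells elsewhere. The summed level of the 46 genes was 1690 CPM in their Procr+ cells and 1700 CPM in the others. Without them the mitosis-high share was 9.67% of Procr+ cells, 21.3% of progenitors and 31.3% of lineage-marker cells. The part that depth or the library had in these counts was not tested.

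Mitosis-high cells carried most of the counts of these genes. In Procr+ cells they were 11.3% of cells and held 14.4% of all counts, but 61.0% of the counts of the 46 genes. The corresponding figure was 83.5% in progenitors, where they held 31.8% of all counts, and 88.0% in lineage-marker cells, where they held 45.3%. The summed level was 7220 CPM in mitosis-high and 772 CPM in other Procr+ cells. In progenitors it was 8870 and 815 CPM, and in lineage-marker cells 7170 and 808 CPM. These cells were chosen by the same genes, so the contrast, in which 43 of 44 genes compared were at least 2-fold higher in Procr+ cells that were mitosis-high (5.75% of all genes), is a description. The summed levels within each kind of cell, which the limit on the number of genes partly sets, lay closer together in the 3 classes than the class totals, which were 1700, 3360 and 3660 CPM. Single genes differed more, as Ube2c, at 5.37 CPM in other Procr+ cells, 4.30 in other progenitors and 19.8 in other lineage-marker cells.

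**Figure D3:**
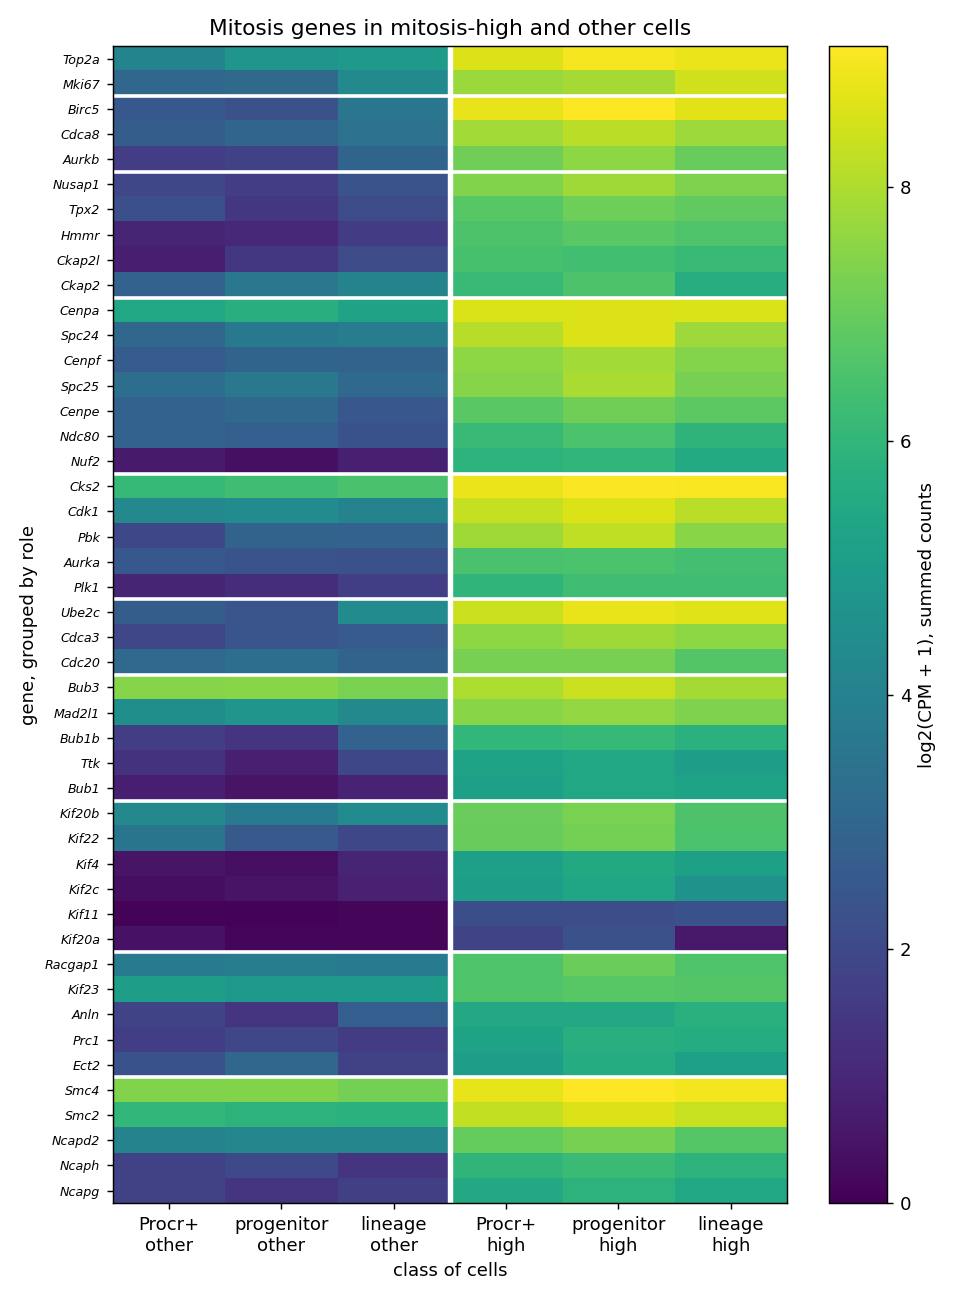
Level of each of the 46 genes as log2(CPM + 1) of summed counts in mitosis-high cells (at least 10 genes) and in other cells of the 3 classes, with rows grouped by role from DNA and chromatin at the top to condensin at the bottom. The mitosis-high columns are brighter for nearly all genes, and some genes differ between classes among other cells, as Ube2c and Kif22; Bub3, Smc4, Cks2 and Smc2 are also bright in other cells, and Kif11 and Kif20a are dark in all columns.

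The genes were higher in progenitors than in Procr+ cells. The ratio was taken of summed-count CPM with a pseudocount of 1, on the log2 scale, and genes at log2(CPM + 1) of at least 4 in either class were compared. Of the 46 genes 40 passed this minimum, 30 of them in both classes and 10 through the progenitors alone, which favours a high ratio. Among the 40, 25 were at least 2-fold higher in progenitors, against 1.25% of all 7589 genes compared. Of the 30 that passed in both classes, 18 were. The other 7, which passed through the progenitors alone, were Plk1, Nuf2, Hmmr, Ect2, Prc1, Ncapg and Ncaph. They are included in the counts by role below. The median log2 ratio of the 40 was 1.14, from 0.30 for Bub3 to 1.51 for Pbk, beside 0.0044 for all genes. The 6 genes under the minimum (Bub1, Ttk, Kif11, Kif20a, Kif2c and Kif4) also had positive ratios. The median over the genes was above 0 in 32 of the 52 libraries with at least 5 cells of both classes, and its library values ran from -4.74 over 0.65 to 4.95. By the median over libraries in place of summed counts, 11 of the genes were 2-fold higher and the median of the mitosis genes compared was 0.50.

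Both chromatin genes were above 2-fold. Mki67, which encodes the Ki-67 proliferation marker that coats mitotic chromosomes, was at 36.9 CPM in Procr+ cells and at 79.7 CPM in progenitors. Exact Poisson intervals, which treat each count as independent, were 36.3 to 37.5 and 78.0 to 81.4. The log2 ratio of Mki67 was 1.09, and it was higher in progenitors in 34 of 52 libraries. Over libraries with at least 10 cells of a class, Mki67 ran from 0 over 24.4 to 99.4 CPM in Procr+ cells (60 libraries) and from 0 over 74.0 to 256 CPM in progenitors (28 libraries). The libraries overlapped. Top2a, which encodes the topoisomerase that untangles copied DNA, was at 70.6 and 179 CPM, a log2 ratio of 1.33 and higher in 37 of 52 libraries.

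The chromosomal passenger complex, which corrects faulty spindle attachments, had 3 of 3 members above 2-fold. Aurkb, its kinase, was at 21.9 CPM in Procr+ cells and 61.1 CPM in progenitors, a log2 ratio of 1.44. Cdca8, which encodes the subunit borealin, had the lowest ratio of the complex at 1.32, with 37.8 and 96.0 CPM. Birc5, which encodes survivin, lay between them at 68.5 and 177 CPM. Over libraries Birc5 ran from 0.208 over 43.0 to 279 CPM in Procr+ cells and from 0.388 over 194 to 491 CPM in progenitors. Its median in progenitor libraries was thus above that of Procr+ libraries, with overlapping ranges.

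Among 5 spindle assembly genes 4 were above 2-fold. Nusap1, whose product bundles spindle microtubules near chromosomes, was at 26.3 CPM in Procr+ cells and 72.8 CPM in progenitors, a log2 ratio of 1.43. Ckap2l, which encodes another spindle protein, had the lowest ratio at 0.96 with 13.1 and 26.4 CPM. Its end overlaps Gm14024 on the opposite strand, and no source used here says whether counting used strand. Kinetochore genes showed 6 of 7 above 2-fold. Spc24, of the NDC80 complex that holds microtubules, was at 46.4 and 132 CPM, a log2 ratio of 1.49 and higher in 36 of 52 libraries. Cenpa, the centromeric histone, had the lowest ratio of the kinetochore genes at 0.80, with 91.7 and 160 CPM.

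Of 5 genes for mitotic kinases and their cofactors, 3 were above 2-fold. Pbk, which encodes a kinase active in mitosis, was at 34.6 CPM in Procr+ cells and 100 CPM in progenitors, and its log2 ratio of 1.51 led all 40 genes. Over libraries it ran from 0 over 25.9 to 180 CPM in Procr+ cells and from 1.16 over 105 to 238 CPM in progenitors. The ranges overlapped, and Pbk was higher in progenitors in 35 of 52 libraries. Cks2, which encodes a small protein that binds cyclin-dependent kinases, had the lowest ratio of its group at 0.85, with 123 and 223 CPM. Cdk1, the kinase that starts mitosis, was at 60.7 and 138 CPM, a log2 ratio of 1.17.

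Of 3 genes linked to the anaphase promoting complex 2 were above 2-fold. Ube2c, the ubiquitin-conjugating enzyme of the complex, was at 51.6 CPM in Procr+ cells and 144 CPM in progenitors, a log2 ratio of 1.46. Ube2c was also uneven, from 0 over 18.9 to 238 CPM in Procr+ libraries and from 0 over 75.3 to 935 CPM in progenitor libraries. Cdc20, an activator of the complex, had the lowest ratio at 0.90 with 28.2 and 53.3 CPM, and it was higher in progenitors in 26 of 52 libraries. Its end overlaps Elovl1 on the opposite strand.

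Spindle checkpoint genes showed 0 of the 3 compared above 2-fold. Bub3, a checkpoint protein also found outside mitosis, was at 186 CPM in Procr+ cells (185 to 187) and 229 CPM in progenitors (226 to 231), a log2 ratio of 0.30. Bub3 ran from 91.7 over 179 to 250 CPM in Procr+ libraries and from 107 over 225 to 352 CPM in progenitor libraries. Bub1, a checkpoint kinase gene under the level minimum, was at 5.56 and 14.0 CPM, a log2 ratio of 1.19 and the highest of its group. Kinesin genes, which encode motors that move along microtubules, showed 0 of 2 above 2-fold, namely Kif22 at 0.85 and Kif20b at 0.73. Under the minimum, Kif4 had the highest ratio of the motors at 1.30, with 5.27 and 14.4 CPM, and Kif20a the lowest at 0.42, with 0.690 and 1.26 CPM. Kif11, the target of spindle motor inhibitors, was nearly uncounted as well, at 0.556 and 1.13 CPM. Even in mitosis-high Procr+ cells Kif11 was at 3.58 CPM and Kif20a at 2.61 CPM. Kif20a ends over Cdc23 on the opposite strand.

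Cytokinesis genes showed 3 of 5 above 2-fold, of which Ect2 and Prc1 passed the minimum through the progenitors alone. Ect2, which activates the RhoA switch of the contractile ring, was at 8.01 CPM in Procr+ cells and 20.1 CPM in progenitors, a log2 ratio of 1.23. Kif23, a motor of the central spindle, was at 42.1 and 53.1 CPM, a log2 ratio of 0.33, and higher in progenitors in 25 of 52 libraries. Condensin genes showed 2 of 5 above 2-fold, Ncaph and Ncapg, and both passed the minimum through the progenitors alone. Ncaph, a regulatory subunit, led them at 1.14 with 10.9 and 25.2 CPM, while Smc4, a core subunit, was lowest at 0.48 with 204 and 285 CPM.

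**Figure D4:**
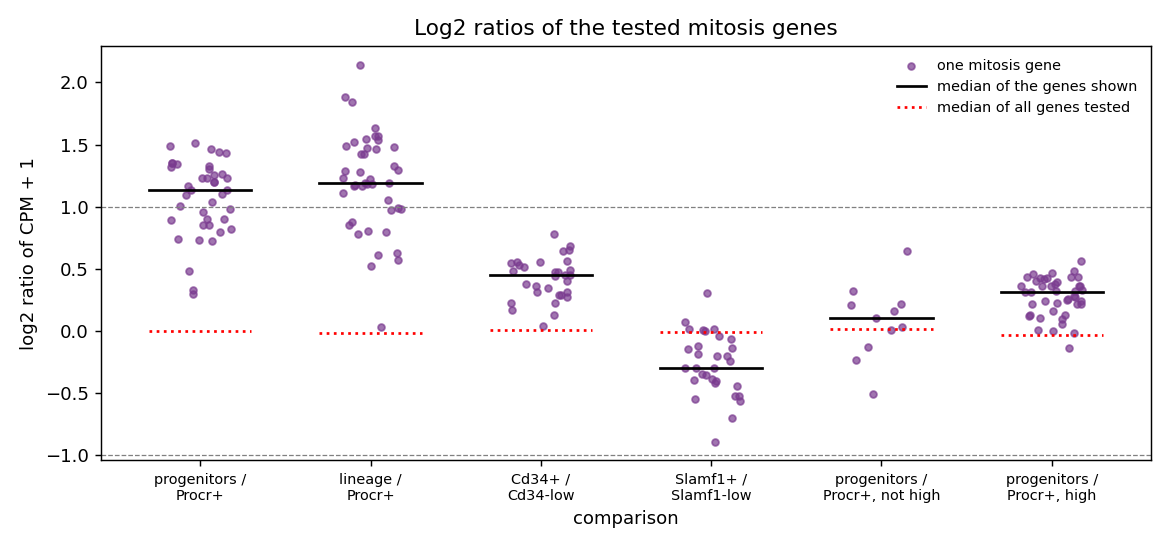
Log2 ratio of CPM + 1 for each mitosis gene that passed the level minimum (points) in 6 comparisons, with the median of those genes (black) and of all genes compared (red, dotted); dashed lines mark 2-fold. The points of the first 2 comparisons lie around 1.14 and 1.19, those within mitosis-high and within other cells lie near 0.31 and 0.11, and none of the last 4 comparisons reaches 2-fold.

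The same ratio was then taken within mitosis-high and within other cells. Both kinds were set by the number of the 46 genes counted, which by itself brings their levels together between classes, so the values are a description. Mitosis-high progenitors against mitosis-high Procr+ cells had 44 genes compared, 0 of them 2-fold higher (0.782% of all genes were) and a median log2 ratio of 0.31. Ect2 had the highest ratio of these at 0.56, while Ckap2l at -0.14, Cdc20 at -0.02 and Anln at -0.001 were the 3 below 0. Median counts were 230603 in the mitosis-high progenitors and 134478 in the mitosis-high Procr+ cells, and the part of depth was not tested. Only 2 libraries held 5 cells of both, with a positive median in 1. Other progenitors against other Procr+ cells had 11 genes compared, again 0 of them 2-fold higher (0.133% of all genes were), with a median of 0.11. Top2a was highest at 0.64, and Kif20b at -0.50, Kif23 at -0.24 and Smc2 at -0.13 were below 0.

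In pooled counts lineage-marker cells also had more of these transcripts than Procr+ cells. Of the 46 genes 43 passed the minimum, 13 of them through the lineage-marker cells alone. Among the 43, 30 were at least 2-fold higher, where 10.3% of all genes were, and the median log2 ratio was 1.19 beside -0.01 for all genes. Of the 30 genes that passed in both classes 18 were 2-fold higher. Mki67 had the highest ratio at 2.14, at 166 CPM in lineage-marker cells (164 to 169), and Bub3 the lowest at 0.03, at 190 CPM. The median over the genes was above 0 in 20 of 31 libraries. Some libraries held many lineage-marker cells and few Procr+ cells, so the pooled contrast is partly one between libraries. Thinned cells of the 2 classes numbered 59 and 1 in Lib1, 34 and 4 in Lib2 and 33 and 8 in Lib3. They numbered 19 and 1 in TP55, 40 and 1 in TP56 and 48 and 1 in TP57. The part of the library was not tested. With each cell weighted equally instead of by its counts 18 of the genes were 2-fold higher, and by the median over libraries 16.

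The lineages differed among themselves. Car2 stood at 100 CPM in 98.9% of Procr+ cells, Prtn3 in 93.4%, and the haemoglobin genes Hba-a1 and Hbb-bt in 30.4% and 34.1%. Lineages are therefore described here with stricter lists that leave out the 10 markers held by at least 20% of Procr+ cells, a choice made after the data were seen. Among 218 cells of the first erythroid list, Klf1, the erythroid master regulator, was at 100 CPM in 27.5%. Under the stricter list 53 erythroid cells remained, and 37 of the 47 thinned ones, or 78.7% (64.3 to 89.3), were mitosis-high. Neutrophil cells with secondary granule genes were next in size of share among lists with over 20 thinned cells, at 45.0% (36.9 to 53.3) of 151. Library TP57 gave 23 of the 68 mitosis-high neutrophil cells.

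T and NK cells followed at 27.3% of 33 (13.3 to 45.5), plasma cells at 17.2% of 58 (8.59 to 29.4) and dendritic cells and macrophages at 13.5% of 52 (5.59 to 25.8). B-lineage cells were lowest at 5.88% of 51 (1.23 to 16.2), with a median of 3 of the 46 genes and 41286 counts per cell before thinning. These intervals cover counting error only, and those of neighbours in this order overlapped, except for erythroid and neutrophil cells. Primary granule cells were 6 of 9 mitosis-high, too few to place. Of mitosis-high cells, Lib17 gave 4 of 9 T and NK cells, 3 of 10 plasma cells and 6 of 37 erythroid cells. After thinning, median genes detected ran from 1737 in B-lineage to 3490 in erythroid cells. They were 2057 in T and NK cells, 2501 in plasma cells, 2745 in neutrophil cells and 2988 in dendritic cells and macrophages. The part of these differences in the order was not tested.

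Against all Procr+ cells the erythroid cells had 37 of 42 genes at least 2-fold higher (12.0% of all genes), at a median of 1.84. Of these 42, 30 passed the minimum in Procr+ cells, 25 of them 2-fold higher at a median of 1.65, and 12 entered through the erythroid cells alone. Ube2c led at 2.74, followed by Mki67 at 2.67, and Kif23 was the one below 0 at -0.44. Neutrophil cells had 39 of 44 (17.9% of all genes) at a median of 1.61. The 30 that passed in Procr+ cells had 25 at a median of 1.43, and 14 entered through the neutrophil cells alone. Mki67 led there at 3.12, followed by Plk1, the polo-like kinase that matures spindle poles, at 2.55, and Bub3 was the one below 0 at -0.34. T and NK cells had 21 of 39 (11.3% of all genes) at a median of 1.05, and plasma cells 9 of 35 (12.9%) at 0.42. Of the 30 genes that passed in Procr+ cells these had 13 at a median of 0.71 and 5 at 0.33.

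B-lineage cells had 1 of 32 genes 2-fold higher (13.3% of all genes) and 6 that were 2-fold lower (24.1%), at a median of -0.20. All genes had a median of -0.21 there. Dendritic cells and macrophages had 0 of 32 higher (18.5%) and 15 that were 2-fold lower (9.75%), at a median of -0.88 beside -0.04 for all genes. Cdc20 had the lowest ratio in both, at -3.06 in B-lineage cells and -3.17 in dendritic cells and macrophages. Few libraries held 5 cells of both a lineage and the Procr+ class, and within them several lineages did not follow the pooled direction. The median over the genes was above 0 in 6 of 7 libraries for neutrophil cells and in 3 of 4 for erythroid cells. It was above 0 in 1 of 5 for plasma cells, with a middle value of -1.36 against 0.42 pooled. The single library with T and NK cells gave -0.39 against 1.05 pooled, and that with B-lineage cells gave 3.01 against -0.20. For dendritic cells and macrophages it was above 0 in 1 of 2.

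Inside the Procr+ class cells were split by surface genes. Cd34, which encodes a sialomucin that is low on the most primitive mouse stem cells, split the class at 50 CPM into 1727 Cd34+ and 871 Cd34-low cells. The mitosis-high share was 12.7% (11.1 to 14.4) of 1662 thinned Cd34+ and 8.59% (6.76 to 10.7) of 815 thinned Cd34-low cells. These intervals, for counting error only, did not overlap, but the library ranges did. Over libraries with at least 10 such cells, Cd34+ ran from 0 over 11.0% to 65.7% (54 libraries). Cd34-low ran from 0 over 8.33% to 50.0% (37 libraries). Of 31 genes compared 0 were 2-fold higher (0.223% of all genes) and 31 were higher, at a median log2 ratio of 0.45, with Cdca8 highest at 0.78 and Bub3 lowest at 0.04. The median was above 0 in 36 of 52 libraries. With the split at 20 CPM of Cd34, 20 genes were 2-fold higher and the median was 1.31. It was 0.77 with Procr at 100 CPM and 0.73 by the median over libraries. Median counts were 138320 in Cd34+ and 112007 in Cd34-low cells, and the part of depth was not tested.

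Slamf1, which encodes the stem cell marker CD150, gave a lower median on the side of the marker. At 50 CPM it marked 527 Slamf1+ cells. Of the 504 that could be thinned 8.33% were mitosis-high (6.07 to 11.1), against 12.1% (10.7 to 13.6) of 1973 thinned Slamf1-low cells, with intervals that overlapped. Of 31 genes compared 25 were lower in Slamf1+ cells and 0 were 2-fold lower (0.265% of all genes), at a median of -0.29. Ube2c was lowest at -0.89 and Aurkb next at -0.70. The 6 that were not lower were Ckap2l at 0.31, Cdca8 at 0.08, Racgap1 at 0.02, Smc2 at 0.02, Kif22 at 0.01 and Ncapd2 at 0.003. The median was above 0 in 10 of 46 libraries. It was -0.16 without Lib42 and -0.52 without Lib75, and it was -0.10 with the split at 20 CPM, -0.71 with Procr at 100 CPM and -0.96 by the median over libraries.

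Both splits together gave 6.13% mitosis-high cells among Slamf1+ Cd34-low cells (3.31 to 10.3) and 13.3% among Slamf1-low Cd34+ cells (11.5 to 15.2). The intervals, for counting error only, did not overlap, but the library ranges did. Only 5 libraries held at least 10 Slamf1+ Cd34-low cells, with shares from 0 over 0 to 7.69%. Slamf1-low Cd34+ cells ran from 0 over 10.5% to 64.3% in 54 libraries. The mixed classes lay between, at 9.93% for Slamf1+ Cd34+ and 9.45% for Slamf1-low Cd34-low cells. Among progenitors, Flt3, a receptor of lymphoid-primed progenitors, gave shares with overlapping intervals: 24.1% (17.4 to 31.9) with at least 50 CPM of it and 22.4% (18.6 to 26.5) with less.

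The genes differed in how many others accompanied them. Each gene was followed over Procr+ cells grouped by how many of the other 45 genes had a count. In cells with 0 to 4 others, Bub3 was counted in 71.6%, Smc4 in 65.6%, Cks2 in 35.1% and Smc2 in 29.0%. These 4 were also the genes at 50 CPM or more in Procr+ cells that were not mitosis-high, with 174, 166, 66.9 and 64.2 CPM. Bub3 was counted in 89.6% of cells with 30 or more others, so it separated the cells little.

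Top2a and Birc5 were often counted at intermediate numbers. In cells with 10 to 19 others Top2a was counted in 53.4% and Birc5 in 43.8%, from 10.8% and 4.31% at 0 to 4, and both were counted in 66 of 66 cells with 30 or more. Hmmr, a spindle protein gene, was at 7.69% with 10 to 19 others and at 82.6% with 30 or more. Plk1 went from 9.09% to 63.4% between the same groups, Kif2c from 1.94% to 52.9% and Prc1, which encodes the protein that bundles the central spindle, from 8.50% to 52.8%. A gene with few counts per cell is missed more often at this depth, so an order of detection is not an order of transcription.

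**Figure D5:**
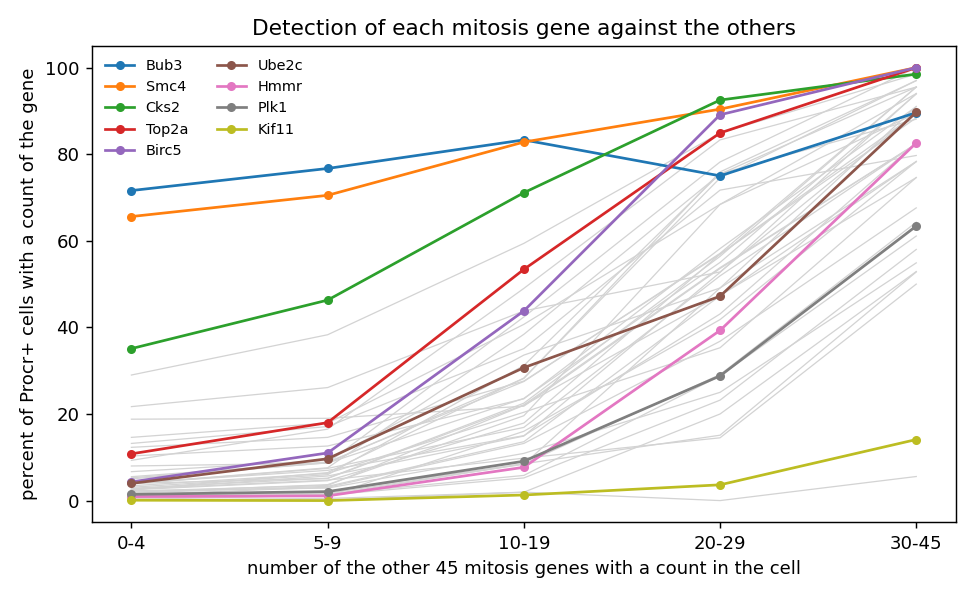
Percent of Procr+ cells with a count of a gene, by how many of the other 45 mitosis genes had a count in the same cell after thinning; grey lines are all 46 genes and 9 are coloured. Bub3 and Smc4 start at 71.6% and 65.6%, Top2a and Birc5 are in all 66 cells of the last group, and Kif11 stays at or below 14.1%.

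Across the 281 mitosis-high Procr+ cells, the closest pair was Birc5 and Cdca8, both of the chromosomal passenger complex, at a Spearman correlation of 0.74. The median correlation with the other genes was 0.53 for Birc5, 0.21 for Bub3 and 0.19 for Kif20a. These cells were chosen by the genes and share libraries and depth, so the values are descriptions. Over all 3826 thinned cells, the genes most like the number of mitosis genes detected, of 9408 others, were Pclaf at 0.47, Ccna2 at 0.45, Ccnb2 at 0.44, Cenpk at 0.44, Asf1b at 0.44, Rrm2 at 0.44, Knl1 at 0.43, Tk1 at 0.42, Hmgb2 at 0.42 and Cenph at 0.41. Among these, Ccna2 and Ccnb2 encode mitotic cyclins, Cenpk, Knl1 and Cenph kinetochore proteins, and Rrm2 and Tk1 enzymes of nucleotide supply.

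DNA replication genes were counted along with the mitosis genes, and their number did not go on increasing with that of the mitosis genes. Of 39 listed replication genes, a median of 8 had a count in Procr+ cells with 0 to 4 mitosis genes, 13 in those with 10 to 14 and 30 in those with 20 to 24. It was 26 with 25 to 29, 29 with 30 to 34 and 24 with 35 or more. The quartiles of the group with 20 to 24 (19 to 33) and of that with 35 or more (18 to 29) overlapped. Mcm5, a subunit of the replicative helicase, was at 22.8 CPM in cells with 0 to 4, 396 CPM at 20 to 24 and 146 CPM at 35 or more. Ccnb1, the partner of Cdk1 at the entry to mitosis, was at 5.84, 29.9 and 344 CPM in the same groups, and Ccnb2 at 4.29, 161 and 1100 CPM. The group with 20 to 24 held 29 cells and that with 35 or more held 48.

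Further mitosis genes outside the 46 were mostly higher in progenitors as well. Of 56 listed, 39 were compared between progenitors and Procr+ cells, and 18 were 2-fold higher (1.25% of all genes), at a median log2 ratio of 0.87. The list median was above 0 in 30 of 52 libraries. How many genes of the lists in this paragraph passed the minimum through the progenitors alone was not counted. Kif15 and Cep55 led at 1.48 and 1.47, and Pttg1, the inhibitor of separase, and Cenpt were lowest at -0.22 and -0.22. Replication genes showed 8 of 36 above 2-fold (1.25% of all genes) at a median of 0.82. They ran from 0.12 for Pole and 0.14 for Chaf1b to 1.31 for Clspn and Uhrf1. Their median was above 0 in 32 of 52 libraries. Of 19 listed regulators of the cell cycle genes 10 were compared, from the E2F, retinoblastoma, MuvB and NF-Y families, since Foxm1 and Mybl2 were under the level minimum. Of the 10, 0 were 2-fold higher (1.25% of all genes), at a median of 0.23 that was above 0 in 21 of 52 libraries. E2f3 at 0.55 and E2f4 at 0.41 were highest, and Lin37 at -0.05 and E2f5 at -0.46 lowest.

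Stem cell identity genes went the other way. In mitosis-high against other Procr+ cells, with Procr left out, 14 of 15 were lower and 2 at least 2-fold lower (1.01% of all genes), at a median log2 ratio of -0.48. The list median was below 0 in 21 of 22 libraries. Mllt3, a regulator of stem cell maintenance, was at 117 CPM in mitosis-high and 249 CPM in other Procr+ cells, a log2 ratio of -1.08, and Robo4, a receptor gene of stem cells and endothelium, was at -1.02. Prdm16 at 0.0023 and Tek at -0.10 were highest. Median counts were 134478 and 134442 in the 2 groups. After thinning to equal counts, however, mitosis-high cells had a median of 3553 genes detected and the others 3039. Procr, the gate gene, was lower too and nearer to the limit of 50 CPM. Its median was 323 CPM with 0 to 4 mitosis genes and 164 CPM with 20 to 24. It was 112 CPM with 30 to 34 and 137 CPM with 35 or more. The part of either in the result was not tested. Between progenitors and Procr+ cells 14 of 15 of these genes were lower, at a median of -0.39 beside 0.0044 for all genes. Mllt3 at -0.83 and Ly6a at -0.59 were lowest, and Gata2 at 0.04 and Hoxa9 at -0.13 highest. Progenitors were set apart by low Procr, so genes that go with Procr may be lower by the gate itself. Among cells with 0 to 4 mitosis genes, Hlf was at 219 CPM in progenitors and 226 CPM in Procr+ cells. Mecom was at 135 and 168 CPM. Whether the progenitors include stem cells was not tested.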

How the data were processed

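Whole-number counts per gene and cell were deposited as 1 matrix, not normalized. The submitters' processing notes name Trimmomatic 0.36, HISAT2 2.1.0, HTSeq 0.9.1 and GRCm38, and the labels' protocols a 3' end method, STRT-seq, modified from Smart-seq2. No source used here says whether reads or molecules were counted. The median count of a detected gene was 10, so amplified copies may be included. Poisson intervals of levels treat each count as independent and would then be too narrow even for counting error. Binomial intervals of shares cover counting error only. A further 17 columns were not used. Counts were summed over cells and scaled to CPM. Analyses used Python 3.11.15, numpy 2.4.6, scipy 1.17.1 and pandas 2.3.3. Thinning used seed 1. No doublet caller was run, since cells were sorted singly per the labels' protocols. The ratio code was tested on simulated data. Positions are from the mouse GENCODE release M21, which holds 19071 of the symbols. The genes and lists were chosen with earlier results of these data known. Named were, for each role, the genes with the highest and lowest ratio of progenitors over Procr+ cells, those against the others in direction, those at 50 CPM or more in Procr+ cells that were not mitosis-high, the 10 genes most like them (among genes counted in at least 5% of cells), and the 2 highest and 2 lowest of each further list. Other genes were added as examples after their values were seen. Alternatives changed the gates, the weighting of cells, the thinning, the level minimum, the pseudocount, the number of genes that makes a cell mitosis-high and the libraries used.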

Additional observations from a re-analysis of the deposited data

How the results depend on the processing

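Of 148 alternative values, 126 stayed close to those reported and 22 moved. Close means within 1 SD between libraries for a median, within the binomial interval for a share and within 1.5 times for a count. Only a median could be marked as changed in direction, and 0 were. The SD of the mitosis gene medians was 1.91 for progenitors, 1.87 for lineage-marker cells, 1.83 for Cd34+ and 1.63 for Slamf1+ cells. Each was wider than the median itself, so a close median could still differ much. For Slamf1 the alternatives counted genes 2-fold higher, and those 2-fold lower were not counted again. The number of mitosis genes that makes a cell mitosis-high set the shares. In Procr+ cells, progenitors and lineage-marker cells they were 52.1%, 59.4% and 65.9% with at least 5 genes, 6.82%, 16.4% and 22.1% with 15, and 5.09%, 13.4% and 16.1% with 20. Thinning to 40000 counts gave 17.8%, 28.6% and 49.0%, and no thinning gave 8.28% of Procr+ and 25.0% of lineage-marker cells. Progenitors stayed above Procr+ cells, and lineage-marker cells above progenitors, in each of these. The Procr+ share was 9.70% with Procr at 100 CPM and 9.67% without Lib17, Lib18 and Lib23. The genes 2-fold higher in progenitors were 11 by the median over libraries, in place of 25. Those in lineage-marker cells were 18 with cells weighted equally and 16 by the median over libraries, in place of 30. Those in Cd34+ cells were 20 with Cd34 at 20 CPM, 6 with Procr at 100 CPM and 9 by the median over libraries, in place of 0. The causes were not tested. Leaving out any one library kept the counts for progenitors between 23 and 27 and for lineage-marker cells between 25 and 33. Leaving out the 3 libraries, the stricter lineage lists and the limit of 20 genes were chosen after seeing the data. No paired analysis was possible because the columns carry no sample or replicate number, and only the library names could be used, to compare classes within a library. Genes with few counts per cell, Kif11 and Kif20a first, could not be followed, and the cause of their low counts was not tested.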
